A study of Oryza sativa Japonica Group with 17 samples.

Results

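Neutral-only i-motif (iM) regions were stretches of the rice genome defined by overlapping iM peaks called against 2 controls, input and IgG. Such overlapping peaks were found at pH 7.0 in all 3 DNA methylation states examined and at pH 5.5 in neither of the 2 states assayed there. A pH 5.5 peak called against 1 control could still be present. Common peaks of a condition, which are peaks called against input that overlapped a peak called against IgG by at least 1 bp, were merged over 5 conditions into 113086 regions. Of these, 797 had common peaks in all 3 pH 7.0 conditions and in no pH 5.5 condition, which is 0.705% of all regions. The regions were chosen by the peak calls themselves, which rest on the fold and q-value of each list, so their fold enrichments, q-values and widths are given as a description without a test.

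An iM is a folded structure of C-rich DNA in which pairs of cytosines bind each other across strands, and one cytosine of each pair carries an extra proton. Acidic conditions favour that proton, so iMs are known mainly as acid-stable structures, and some C-rich sequences also fold near neutral pH. Methylation of cytosine is known to affect the stability of iMs in a manner that depends on the sequence.

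The data came from iM-IP-seq, in which genomic DNA of Nipponbare rice seedlings was refolded in vitro and precipitated with iMab, an antibody fragment that binds iMs. CK was DNA with its original methylation, assayed at pH 7.0. Hypermethylated DNA had been incubated with the methyltransferase M.CviPI, and demethylated DNA came from 5-day-old seedlings grown with 80 µM zebularine, a DNA methyltransferase inhibitor, for another 5 days. Both of these were assayed at pH 7.0 and at pH 5.5, with 2 iMab libraries and 1 IgG library for each condition among 17 libraries in all. The 2 other libraries were inputs of hypermethylated and demethylated DNA, and the input library behind the CK peaks was not analysed here. The change in methylation was made on purified DNA in one treatment and in living seedlings in the other. CK at pH 5.5 was not analysed here, so whether DNA with unaltered methylation lacked peaks in these regions at pH 5.5 was not tested. The labels do not say whether CK came from seedlings of the same age as the zebularine-treated seedlings.

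The replicates had been merged before peaks were called, so the values below carry no replicate error. The depth of each list was recovered from the fold and p-value of each peak. It is the mean IP coverage after the caller's scaling, here called background coverage. The IP pileup was scaled by 0.489 in CK against input, 0.910 in CK against IgG and 0.598 in demethylated pH 5.5 DNA against IgG. The other lists were not scaled down. At pH 7.0 background coverage was 6.0 fragments in CK against input and 11.2 against IgG. It was 11.4 in hypermethylated DNA and 14.4 in demethylated DNA against either control. At pH 5.5 it was 9.35 in hypermethylated DNA against either control, and in demethylated DNA it was 7.99 against input but only 4.78 against IgG. After scaling, the demethylated pH 5.5 list called against IgG thus had the lowest background coverage of the 10 lists. A peak at background level needed a fold of at least 2.35 there, compared with 1.84 in the hypermethylated pH 5.5 lists.

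To see how rare absence at pH 5.5 was, all 39759 regions with common peaks in CK, hypermethylated and demethylated DNA at pH 7.0 were sorted by their pH 5.5 peaks. Most of them, 30100 regions or 75.7%, had common peaks in all 5 conditions and are called constitutive here. A further 7372 regions (18.5%) also had a peak in hypermethylated DNA at pH 5.5 but not in demethylated DNA, and 1490 (3.75%) had one in demethylated DNA only. The 797 neutral-only regions made up 2.005% (95% Wilson interval 1.87 to 2.15%, counting error only). In the opposite direction, 2551 regions had common peaks in both pH 5.5 conditions and in no pH 7.0 condition, and these are called acid-only.

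Neutral-only regions were short. Their median width was 411 bp (middle 50% from 324 to 575 bp), and they ranged from 214 to 2912 bp and covered 388.8 kb in total. Constitutive regions had a median of 764 bp, and regions that also had a hypermethylated or a demethylated pH 5.5 peak had medians of 610 and 518 bp. Acid-only regions were the shortest, with a median of 274 bp. Each region joins the peaks of all its conditions, from 2 in acid-only to 5 in constitutive regions, so these widths are not like for like. Single peaks against input had median widths of 230 bp in CK, 326 bp in hypermethylated and 353 bp in demethylated DNA in neutral-only regions. In constitutive regions these medians were 312, 582 and 580 bp. Only 36 neutral-only regions (4.52%) were longer than 1 kb, whereas 32.5% of constitutive regions were. The widest neutral-only region, 2912 bp at chr11:7153867-7156778 (coordinates of MSU v7.0 here and below), had folds against input of 3.24 in CK, 3.01 in hypermethylated and 2.68 in demethylated DNA, and it overlapped a peak of a pH 5.5 list. Nearly every member held a single peak in each condition, since several peaks called against input were found in 10 members in CK, 4 in hypermethylated DNA and 11 in demethylated DNA.

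The peaks in these regions were weaker than those of constitutive regions in all 3 conditions, but not always weaker than those of the other regions with pH 7.0 peaks. Fold enrichment, the ratio of the IP pileup at the summit to the local control level, had a median of 3.28 against input in CK (80% of members from 2.51 to 4.66), 3.25 in hypermethylated DNA (2.33 to 5.42) and 3.03 in demethylated DNA (2.20 to 4.34). The 3 medians of neutral-only regions thus lay close together. Constitutive regions had median folds of 3.77 in CK, 6.65 in hypermethylated DNA and 4.98 in demethylated DNA. Against IgG the medians of neutral-only regions were 3.37, 3.34 and 3.09 in CK, hypermethylated and demethylated DNA, compared with 6.56, 6.45 and 4.60 in constitutive regions. Regions that also had a demethylated pH 5.5 peak had a slightly lower median than neutral-only regions in CK against input, at 3.21, and in demethylated DNA against IgG, at 3.003. The summit of a neutral-only peak called against input rested on a median of 52 reads in CK, 44 in hypermethylated DNA and 51 in demethylated DNA, compared with 107, 88 and 86 reads in constitutive regions. The −log10 q-value of neutral-only peaks against input had medians of 5.55, 10.2 and 10.2 in CK, hypermethylated and demethylated DNA, below the medians of 13.6, 42.7 and 31.4 in constitutive regions. The CK values against input come from the list scaled down to the lowest pH 7.0 coverage.

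**Figure D1:**
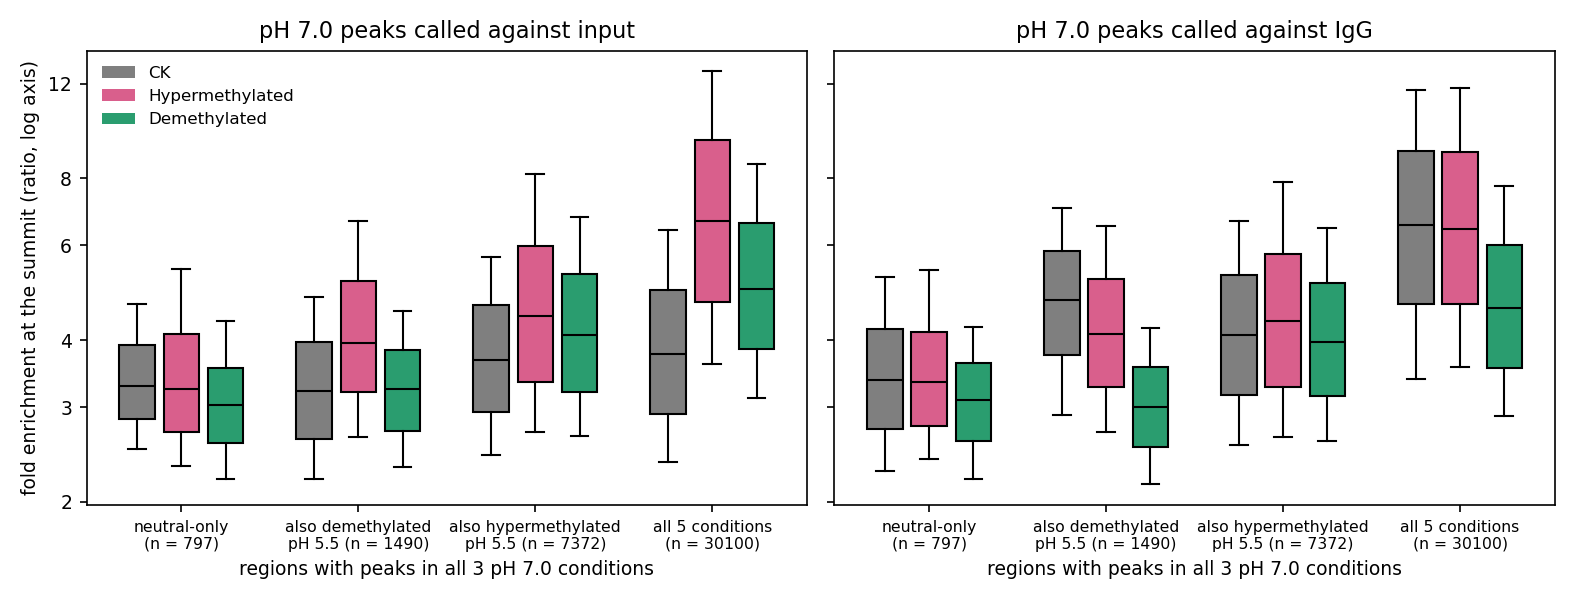
Fold enrichment at the summit (ratio, log axis) of pH 7.0 peaks called against input (left) and IgG (right), in 4 sets of regions with peaks in all 3 pH 7.0 conditions. Lines are medians, boxes the middle 50% and whiskers the middle 80% of regions, with no replicate error, and the 6 boxes of neutral-only regions have medians from 3.03 to 3.37, below those of constitutive regions in both panels.

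Folds were next compared between the methylation states, against each control. The median log2 ratio of hypermethylated over CK DNA in neutral-only regions was -0.02 against input and -0.03 against IgG, and 385 and 386 members, respectively, were higher in hypermethylated DNA. For demethylated over CK DNA it was -0.14 against input and -0.15 against IgG. The neutral-only values were thus similar against both controls. In each pH 7.0 list, 33.9 to 47.7% of neutral-only peaks had a local control level equal to the background coverage. The fold of such a peak rests mainly on the IP library, so this similarity was partly built in. In constitutive regions the direction turned with the control, since the ratio of hypermethylated over CK DNA was 0.76 against input and -0.17 against IgG, and that of demethylated over CK DNA was 0.38 and -0.59. No difference between neutral-only and constitutive regions in these ratios is therefore drawn from either control alone. CK had the highest of the 3 folds against input in 336 members (42.2%), hypermethylated DNA in 315 (39.5%) and demethylated DNA in 146 (18.3%), and against IgG in 349, 320 and 128 members. Across the 797 members, which share libraries and controls, Spearman's rho of the fold was 0.302 between CK and hypermethylated DNA, 0.290 between CK and demethylated DNA and 0.495 between hypermethylated and demethylated DNA. These weak correlations are given as a description.

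The position of the peak differed little between the 3 conditions. Summits were a median of 21 bp apart between CK and hypermethylated DNA, 22 bp between CK and demethylated DNA and 24 bp between hypermethylated and demethylated DNA. In constitutive regions, which are wider, the same distances were 18, 21 and 24 bp. All 3 summits fell within 50 bp in 421 members (52.8%) and within 200 bp in 691 (86.7%), compared with 57.1% and 80.5% of constitutive regions.

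The local control level, to which the pileup is compared, differed between the region sets in one list. In CK against input it had a median of 1.02 times the background coverage in neutral-only regions and 2.17 times in constitutive regions. Regions that also had a hypermethylated or demethylated pH 5.5 peak had 1.21 and 1.67 times. A level of more than 3 times background was seen in 3 neutral-only regions, whereas it was seen in 23.6% of constitutive regions. In the other 5 pH 7.0 lists the median lay between 1.02 and 1.10 times background in neutral-only regions and between 1.05 and 1.20 times in constitutive regions. The part of the CK input control in the folds of constitutive regions was not tested.

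The share of neutral-only regions fell as the pH 7.0 peaks became stronger. When the 39759 regions were divided into deciles by the lowest −log10 q-value of the 3 pH 7.0 conditions, 6.39% of the weakest decile (254 of 3975 regions) were neutral-only. The share fell with each decile to 1.31% in the fifth and 0.126% in the ninth, and none of the 3976 regions in the strongest decile was neutral-only. By the lowest fold, the share was 4.28% in the weakest decile and 0.0503% (2 regions) in the strongest. Constitutive regions rose from 53.4% of the weakest decile to 95.1% of the strongest decile by −log10 q-value. Because the rule and the deciles use the same peak calls, these shares describe the members and were not tested.

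**Figure D2:**
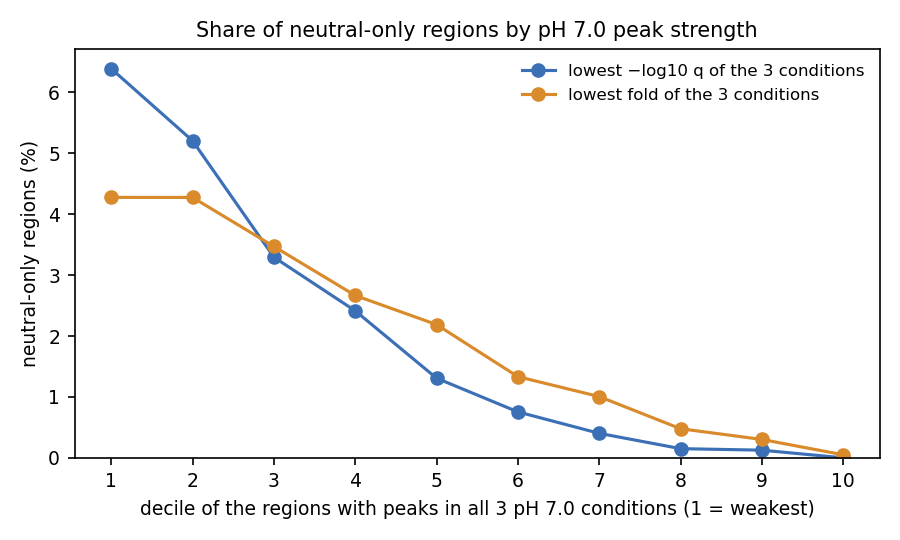
Share of neutral-only regions (%) in each decile of the 39759 regions with peaks in all 3 pH 7.0 conditions, from weakest to strongest by the lowest −log10 q-value (blue) or the lowest fold (orange). The blue line falls from 6.39% to 0 and the orange line from 4.28% to 0.0503%.

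Many neutral-only regions were not empty at pH 5.5, since the rule asked for peaks called against both controls. A peak of at least 1 of the 4 pH 5.5 lists overlapped 495 members, and 302 (37.9%, Wilson interval 34.6 to 41.3%) overlapped none. Among all 13089 regions without a pH 5.5 common peak, 49.5% overlapped none, and this difference was not tested. The demethylated pH 5.5 list called against input overlapped 357 members (44.8%, background 35.4%). The hypermethylated pH 5.5 list overlapped 210 members when called against input (26.3%, background 16.8%) and 99 when called against IgG (12.4%, background 9.73%). The demethylated pH 5.5 list called against IgG overlapped 2 members (0.251%), near the background of 0.206%. The rule excluded regions where peaks against both controls overlapped, so the shares of the 4 lists are not independent of it. In demethylated DNA the pH 5.5 lists also differed in size, with 121946 peaks against input and 80882 against IgG. Each member joins peaks of 3 conditions, whereas many of the 13089 regions had a common peak in 1 condition only. These were 5677 regions in demethylated, 2841 in hypermethylated and 915 in CK DNA at pH 7.0, so the background is not like for like. The part of list size and of this make-up in the shares was not tested. By treatment, 136 members had a pH 5.5 peak in hypermethylated DNA only, 189 in demethylated DNA only and 170 in both. In 3 members the hypermethylated DNA had peaks against both controls that did not overlap each other.

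**Figure D3:**
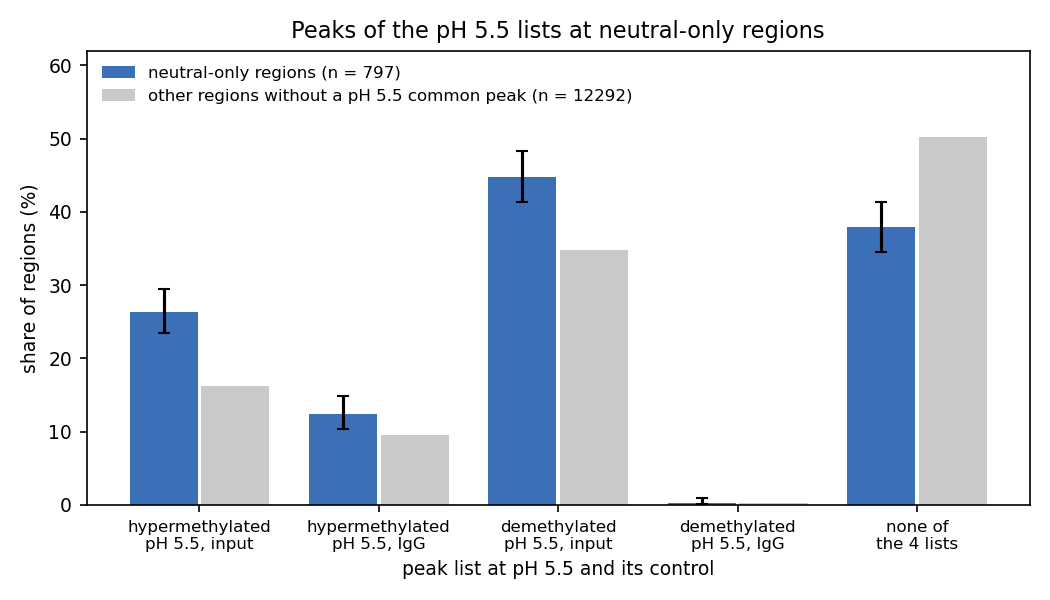
Share of regions (%) that overlapped a peak of each pH 5.5 list, or of none of the 4, for the 797 neutral-only regions (blue, with 95% Wilson intervals that cover counting error only) and the 12292 other regions without a pH 5.5 common peak (grey). The demethylated list called against input reached the highest share of members at 44.8% and the demethylated list called against IgG the lowest at 0.251%.

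Where a pH 5.5 peak was present, its fold was compared with that of the pH 7.0 peak of the same treatment and control. In hypermethylated DNA against input, the 210 pH 5.5 peaks had a median fold of 2.90 (range 1.71 to 8.69), compared with 3.78 at pH 7.0, and the pH 5.5 fold was lower in 177 (84.3%). Against IgG the 99 peaks had a median of 2.80 at pH 5.5 and 3.25 at pH 7.0, lower in 67 (67.7%). In demethylated DNA against input, however, the 357 pH 5.5 peaks had a median fold of 3.23 (1.66 to 8.20), compared with 3.04 at pH 7.0, and the pH 5.5 fold was lower in 170 (47.6%). The median log2 ratio of the fold at pH 5.5 over pH 7.0 was 0.02 for demethylated and -0.46 for hypermethylated DNA against input. The rule asked for common peaks at pH 7.0 and for none at pH 5.5, so it favours lower folds at pH 5.5. The lowest fold of a peak at background level against input was 1.89 at pH 5.5 and 1.68 at pH 7.0 in demethylated DNA. In hypermethylated DNA it was 1.84 and 1.77. The part of the rule and of these limits in the ratios was not tested. None of the 357 members with a demethylated pH 5.5 peak against input overlapped a peak of that condition called against IgG. The rule largely fixed this outcome, since overlapping peaks against both controls would have made a common peak.

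The called peaks were then compared at one coverage. Summit values of all 10 lists were scaled to the lowest background coverage, and peaks below the threshold of that list were dropped. Peaks were not called again, so none could be gained and widths stayed as called. Under this setting 744 regions met the rule, and 593 of the 797 members (74.4%) were kept.

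Regions just inside and just outside the rule each had a peak close to the threshold. The weakest members by their lowest −log10 q-value were chr9:1945459-1945926, chr12:11408783-11409295 and chr12:20678532-20678859, with −log10 q-values in CK against input of 1.31, 1.40 and 1.42 and folds of 1.84, 1.91 and 1.39. In CK against IgG their −log10 q-values were 7.24, 9.86 and 7.99. The last region had 23.1 in hypermethylated and 53.8 in demethylated DNA against input. Its control levels against input were 9.49, 5.89 and 7.75 times background in CK, hypermethylated and demethylated DNA. Just outside, chr6:16001442-16002337, chr4:4892465-4892917 and chr4:15434143-15434499 had pH 7.0 peaks in all 3 conditions and a hypermethylated pH 5.5 peak against input with −log10 q-values of 1.42, 1.43 and 1.45 and folds of 1.67, 1.69 and 1.72.

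The 10 members described next had no peak in any pH 5.5 list and the highest values of the lowest −log10 q-value of the 3 pH 7.0 conditions. The first was a region of 283 bp at chr3:13696775-13697057. Its folds against input were 8.00 in CK, 5.95 in hypermethylated and 4.86 in demethylated DNA, on 120, 85 and 74 summit reads, and its 3 summits lay within 6 bp. The nearest peak of any pH 5.5 list was 3159 bp away. Its CK fold against input was the highest of all 797 members, while against IgG it had 8.52 and the highest member 8.83.

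Most of the other regions among the 10 had folds between 3.39 and 5.59. The region at chr10:21105774-21106205 had folds of 5.38, 4.11 and 4.27 in CK, hypermethylated and demethylated DNA. At chr2:21508066-21508429 the folds were 5.08, 4.08 and 3.52, and at chr5:20923637-20923894 they were 5.03, 4.27 and 3.63. The region at chr12:23644381-23645145 had folds of 5.59, 4.19 and 3.43, and its nearest pH 5.5 peak was 4274 bp away. In each of these 4 regions CK had the highest fold against input, and against IgG it did in all but the region on chromosome 2, where CK had 4.15 and hypermethylated DNA 4.96. The regions at chr11:5921041-5921589 (5.10, 3.46 and 3.80), chr9:6406339-6406673 (5.59, 3.39 and 4.21) and chr12:10748654-10749019 (4.89, 3.39 and 4.17) also had their highest fold in CK, against either control. Their lowest fold against input was in hypermethylated DNA, whereas against IgG it was in demethylated DNA for the regions on chromosomes 11 and 9. The region on chromosome 11 lay only 239 bp from a pH 5.5 peak.

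A pair of regions on chromosome 10 differed from the rest. At chr10:10822418-10823054 the fold against input was 4.96 in CK but 10.0 in hypermethylated and 9.55 in demethylated DNA, and against IgG it was 5.24, 49.6 and 15.9. At chr10:10875987-10876358 the folds against input were only 3.00, 2.88 and 1.94, while the summits held 426, 1037 and 214 reads. The control level there was 11.5, 31.4 and 7.61 times the background coverage in CK, hypermethylated and demethylated DNA, so reads were also high in the control. The part of this local coverage in the calls was not tested.

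**Figure D4:**
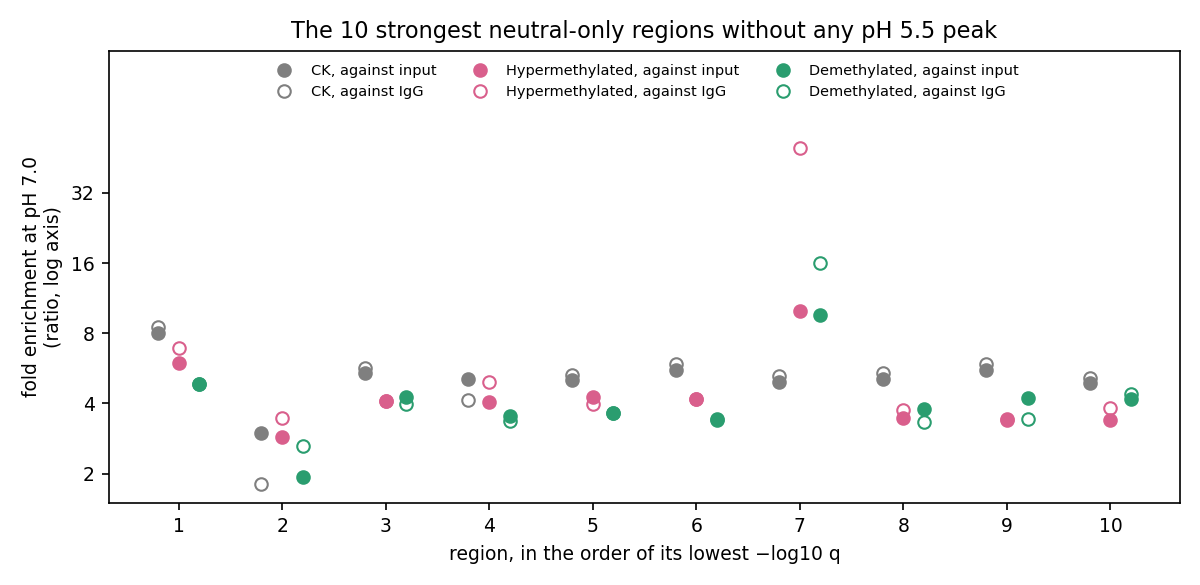
Fold enrichment at pH 7.0 (ratio, log axis) in CK, hypermethylated and demethylated DNA for the 10 strongest neutral-only regions without any pH 5.5 peak, ordered by their lowest −log10 q-value, against input (filled) and IgG (open). Region 1 reaches 8.00 in CK against input, and region 7 reaches 49.6 in hypermethylated DNA against IgG, where most other points lie between 3.39 and 5.59.

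The 302 members without any pH 5.5 peak were slightly weaker at pH 7.0 than the other 495. Their median folds against input were 3.21 in CK, 3.13 in hypermethylated and 2.91 in demethylated DNA, compared with 3.33, 3.38 and 3.11. Their median region width was 387.5 bp, compared with 432 bp. These differences were not tested.

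Distances to other iM regions were then measured. The nearest pH 5.5 common peak was at a median distance of 1163 bp (middle 50% from 614 to 2101 bp), with 154 members (19.3%) within 500 bp and 42 (5.27%) farther than 5 kb. The nearest region of any kind was constitutive for 202 members (25.3%, where 26.6% of all regions are constitutive) and acid-only for 7 (0.878%, where 2.26% are). Another neutral-only region was nearest for 11 members (1.38%, where 0.705% of all regions are neutral-only). The median distance from a member to the nearest other member was 131.8 kb, and 73 members (9.16%) had another member within 10 kb.

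All 12 chromosomes held neutral-only regions, from 51 on chromosome 7 to 95 on chromosome 4. Their density was 2.18 ± 0.419 per Mb (SD over 12 chromosomes), lowest on chromosome 1 at 1.48 and highest on chromosome 11 at 2.79. As a share of all regions it was 0.717 ± 0.140%, from 0.494% on chromosome 1 to 0.947% on chromosome 11, while the share of constitutive regions stayed between 24.6 and 28.8%. Chromosome 11 also held the most members without any pH 5.5 peak, 44 of 81. Of 380 windows of 1 Mb, 69 held no member and 38 held 5 or more. The fullest window, chr5:11000001-12000000, held 11 neutral-only regions among 335 regions (3.28%), followed by chr11:11000001-12000000 with 9 of 291. Next, with 8 members each, came chr12:20000001-21000000 (of 309 regions), chr3:13000001-14000000 (of 321) and chr4:3000001-4000000 (of 373).

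**Figure D5:**
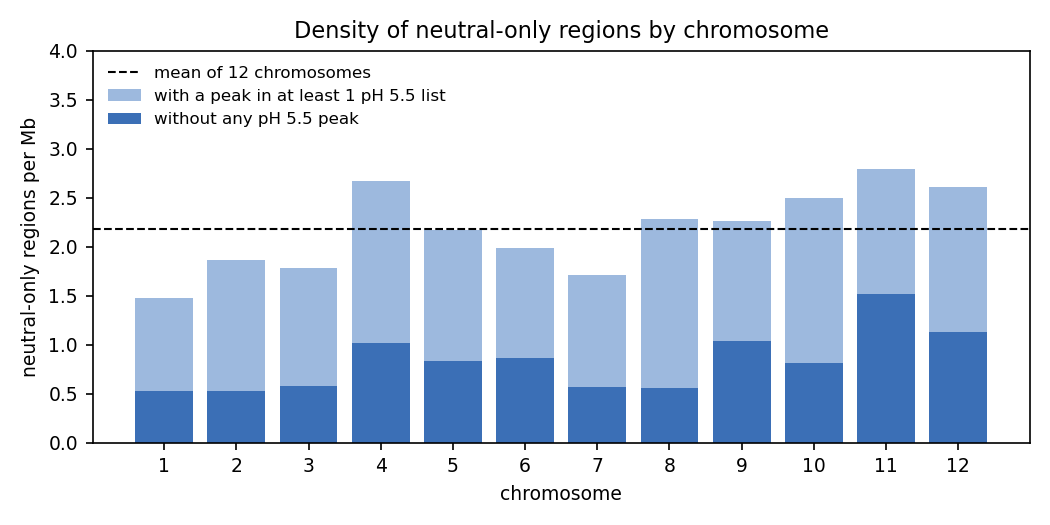
Neutral-only regions per Mb on the 12 chromosomes, split into those without any pH 5.5 peak (dark) and those overlapping a peak of at least 1 pH 5.5 list (light), with the mean of 2.18 as a dashed line. The bars range from 1.48 on chromosome 1 to 2.79 on chromosome 11.

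The distance to the nearest chromosome end was not used by the rule and was tested. For each chromosome, the median of neutral-only regions was compared with that of constitutive or acid-only regions, and an exact permutation test that flips the signs of the 12 differences (two-sided) was run, with Benjamini-Hochberg adjustment over 4 tests, 2 of which were on the spacing described last. Chromosomes are not biological replicates, so the test compares these merged libraries only. Neutral-only regions were farther from the chromosome ends than acid-only regions, at a mean of 9.19 compared with 7.27 Mb (difference 1.92 ± 1.75 Mb, SD, higher on 10 of 12 chromosomes, exact permutation test, adjusted p = 0.0176). This difference kept its direction and its call under the alternatives run, although the neutral-only set held only 43 of the 797 members with a fold of at least 4 and 5 of them with the top 20000 common peaks. They were also farther than constitutive regions, at 8.43 Mb (difference 0.761 ± 1.10 Mb, 9 of 12 chromosomes, exact permutation test, adjusted p = 0.0415). By the adjusted p of the exact permutation test, this call was lost under 6 of the alternatives. When 50% of the shorter peak had to be shared, the difference was 0.757 Mb (exact permutation test, p = 0.0400, adjusted p = 0.0534). Each adjusted p also depends on the 2 spacing tests, so a lost call need not mean a smaller difference.

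The spacing of the regions comes from the same merged peaks that define the sets, so it is given without a p-value. The distance from a neutral-only region to the nearest other region of any kind was 785 bp as a mean of the medians per chromosome, compared with 925 bp for acid-only and 708 bp for constitutive regions. The difference from acid-only regions was -139 ± 139 bp (SD over 12 chromosomes, lower on 9) and turned to 76.5 bp when members with a pH 5.5 common peak within 500 bp were left out. The difference from constitutive regions was 77.8 ± 115 bp (higher on 10 of 12) and turned to -36.4 bp with a −log10 q-value of at least 5, -239 bp with a fold of at least 4 and -1595 bp with the top 20000 common peaks. Both differences in spacing thus changed direction under at least 1 setting.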

How the data were processed

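The authors trimmed reads with fastp, aligned them to MSU v7.0 with BWA, removed reads of low mapping quality with SAMtools and duplicates with Picard, pooled the 2 iMab libraries of each condition, and ran MACS2 2.1.1 (q-value limit 0.05) with input or IgG as control. The deposited files were 10 peak lists, whose values are the fold (a ratio) at the summit and the caller's −log10 q-value and −log10 p-value. The deposited score column repeats the q-value and was not used. A label gives a pH 5.5 buffer for all libraries, and pH was taken from the titles. The labels of the demethylated pH 7.0 IP libraries name another condition's input list, so that list was assigned by its own name.

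Regions, overlaps and distances were calculated in Python 3.11.15 with pandas 2.3.3 and scipy 1.17.1, and checked against bedtools 2.31.1 on simulated intervals. Summit reads, local control level and coverage were solved from fold and p-value as MACS2 computes them, for peaks with a −log10 p-value up to 250. The fold ratios against IgG were added after the data were seen. Chromosome length was the largest peak end. Regions named in the text are the 10 strongest members without any pH 5.5 peak by the lowest −log10 q-value, the 3 weakest members, the 3 regions just outside the rule, the widest member and the fullest 1-Mb windows (3 by the rule, and those tied with the third). The members, lists and tests were chosen with earlier results of these data known. Alternatives changed the peak set, threshold, overlap, joining, coverage, definition of absence and statistic. Sequence content and genes were not analysed here.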

Additional observations from a re-analysis of the deposited data

How the results depend on the processing

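Of 114 alternative values of 11 results, 57 kept their direction and size or call, 40 moved in size, 13 no longer passed the test and 4 reversed. This tally also counts calls on spacing, a measure that comes from the peaks that define the sets. The adjusted p-values behind the calls on distance to the chromosome end also depend on the spacing tests. All 4 reversals were differences in spacing. The cause of these changes was not tested unless stated. The number of neutral-only regions was 797, and it was 421 with all input-called peaks, 1602 with all IgG-called peaks, 463 with a fold of at least 4 and, by construction, 302 without a peak in any pH 5.5 list. Their share of regions with pH 7.0 peaks in all conditions was 0.982%, 3.03%, 3.605% and 0.760% under these settings, 2.75% with a −log10 q-value of at least 5, 11.2% with the top 20000 common peaks and 1.617% without a pH 5.5 common peak within 500 bp. Members without any pH 5.5 peak numbered 664 with IgG-called peaks, 132 with the q-value limit, 6 with the fold limit and 0 with the top 20000. These were largely different regions under some settings, since 347 of the 797 members were kept with input-called peaks, 687 with IgG-called peaks, 377 with the q-value limit, 43 with the fold limit, 5 with the top 20000 and 593 with one coverage. Median width ranged from 387.5 to 1143 bp and median fold from 2.79 to 8.13.

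The distance to the nearest other region is given without p-values. Neutral-only minus constitutive, it reversed to -36.4 bp with the q-value limit, -239 bp with the fold limit and -1595 bp with the top 20000, and was 69.8 bp with a 50% overlap, 72.2 bp with joining across gaps, 60.9 bp with one coverage, 123 bp without any pH 5.5 peak and 0.0205 as a mean of log10. Minus acid-only, it reversed to 76.5 bp without a pH 5.5 common peak within 500 bp and was -8.25 bp with input-called peaks and -93.8 bp without any pH 5.5 peak. The distance to the chromosome end, minus constitutive, no longer passed the exact permutation test after adjustment under the following settings. It was 0.857 Mb with input-called peaks (exact permutation test, p = 0.0420, adjusted p = 0.0560). With IgG-called peaks it was 0.601 Mb (exact permutation test, p = 0.0591, adjusted p = 0.0591). With the fold limit it was 0.300 Mb (exact permutation test, p = 0.494, adjusted p = 0.494). A 50% overlap gave 0.757 Mb (exact permutation test, p = 0.0400, adjusted p = 0.0534). Without any pH 5.5 peak it was 0.737 Mb (exact permutation test, p = 0.0596, adjusted p = 0.0794). Without a pH 5.5 common peak within 500 bp it was 0.866 Mb (exact permutation test, p = 0.0454, adjusted p = 0.0605).

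No paired analysis was possible because the replicates were merged before peak calling, and for the same reason none was left out. The comparison of C, GC, CpG and GpC content was not run. The demethylated pH 5.5 list called against IgG had the lowest background coverage after scaling, and its part in absence at pH 5.5 was not tested.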
